A study of Mus musculus with 8 samples.

Results

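The genes described here encode homeodomain transcription factors outside the HOX clusters. They are the protein-coding rows of the deposited table whose symbols begin with Irx, Meis, Pbx, Dlx, Msx, Lhx, Prrx, Tgif, Cux, Onecut or Zfhx followed by a digit, or have the form of Pou, a digit, f and a digit. The rule found 40 genes among 21649 rows, of which 16330 are protein-coding. Another 3 rows that matched the symbols are long non-coding RNAs and were left out. Sorted cells labelled non-vascular smooth muscle cells were profiled by RNA sequencing in mice, with 3 libraries from bladder, 3 from intestine and 2 from lung. All 3 groups shared the genotype Cspg4-Dre/Acta2-CreERT/R26-GFP, in which the promoters of Cspg4 (the NG2 proteoglycan) and Acta2 (smooth muscle actin) drive the Dre and Cre recombinases and GFP is the reporter. All mice received tamoxifen, which activates CreERT, at 0.75 mg per 10 g body weight into the peritoneum over 3 days, from 20 mg/mL in corn oil. At most 10 ng of total RNA entered the SMART-Seq v4 kit, which does not mark strand, so that reads of overlapping and antisense genes cannot be told apart.

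A homeodomain is a DNA-binding fold encoded by a stretch of the gene called the homeobox. The MEIS and PBX proteins, of the TALE class (named for a loop extension within the homeodomain), bind DNA together with each other and with HOX proteins, while TGIF proteins repress transcription and IRX proteins pattern embryonic tissue. PRRX proteins mark limb and craniofacial mesenchyme and fibroblasts, MSX and DLX factors act downstream of BMP signalling in mesenchyme and in neurons, and LIM, POU, CUT and zinc finger homeodomain factors are best known from neurons, endocrine cells and development.

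Homeobox sequences of PRRX and MEIS genes are printed first, because near-identical coding sequence decides whether reads can be assigned to one member. They were read from GENCODE M21 transcripts, 5′ to 3′ on the coding strand. Capitals mark the codons for the residues Trp-Phe-x-Asn of the third helix of the homeodomain, which contacts DNA.
Prrx1: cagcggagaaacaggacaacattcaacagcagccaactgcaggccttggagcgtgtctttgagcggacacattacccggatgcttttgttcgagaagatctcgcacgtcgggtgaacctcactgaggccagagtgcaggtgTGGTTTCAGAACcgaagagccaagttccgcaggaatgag
Prrx2: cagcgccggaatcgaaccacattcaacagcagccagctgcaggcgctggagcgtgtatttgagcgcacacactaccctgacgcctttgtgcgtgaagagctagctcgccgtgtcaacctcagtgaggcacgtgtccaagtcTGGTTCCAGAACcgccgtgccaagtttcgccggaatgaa
Meis1: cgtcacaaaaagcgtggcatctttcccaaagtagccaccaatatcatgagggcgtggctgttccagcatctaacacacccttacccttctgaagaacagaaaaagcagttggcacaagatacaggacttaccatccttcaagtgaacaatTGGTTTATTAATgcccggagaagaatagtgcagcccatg
Meis2: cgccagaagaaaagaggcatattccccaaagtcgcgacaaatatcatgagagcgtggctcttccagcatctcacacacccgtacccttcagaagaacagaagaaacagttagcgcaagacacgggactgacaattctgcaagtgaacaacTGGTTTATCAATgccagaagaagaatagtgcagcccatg
Meis3: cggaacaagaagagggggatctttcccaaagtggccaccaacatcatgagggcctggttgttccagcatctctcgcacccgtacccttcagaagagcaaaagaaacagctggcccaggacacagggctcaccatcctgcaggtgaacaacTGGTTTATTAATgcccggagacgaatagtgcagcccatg
Prrx1 and Prrx2 were identical at 142 of 180 nt of the homeobox (78.9%), and 58 of the 60 codons encoded the same residue. Their transcripts shared no identical run longer than 19 nt. Meis1 and Meis2 were identical at 159 of 189 nt (84.1%) with 62 of 63 codons encoding the same residue, and their longest shared run was 32 nt. Meis1 and Meis3 were identical at 160 of 189 nt (84.7%) with 61 of 63 codons encoding the same residue, and their longest shared run was 21 nt. The longer TALE homeoboxes encode the 3 further residues of the loop extension. Of the 40 members, 37 had codons for the Trp-Phe-x-Asn-x-Arg core in their coding sequence. Onecut2, Onecut3 and Pou5f2 did not match it, and Zfhx2, Zfhx3 and Zfhx4 each matched it at 3 places.

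Values below are normalized read counts as deposited, given in the order of the replicate numbers or as mean ± SD over libraries (n = 3 in bladder and intestine, n = 2 in lung). The libraries held 9.72 to 13.6 M reads as reconstructed from the gaps between the values, and 3 reads were worth 2.47 to 3.81, so values below 3.81 can lie at the limit that a count of 0 allows. Acta2 was called between no pair of organs (2602 ± 308 in bladder, 2643 ± 214 in intestine, 2674.5 ± 62.9 in lung). Cspg4 was at 412 ± 23.4 in bladder against 4402 ± 200.5 in intestine and 4401 ± 503.5 in lung, and Myh11, the smooth muscle myosin, was at 5041 ± 921, 11954 ± 546 and 10586 ± 295. Markers of other cell types were present in each organ. The 8 fibroblast markers summed to 53396 to 60234 in bladder, 36796 to 39219 in intestine and 27188 to 30630 in lung. The 10 enteric neuron markers summed to 711 to 869, 4430 to 4960 and 766 to 1319 in the same order, and the 8 intestinal epithelial markers to 993 to 1333, 10879 to 11221 and 481 to 728. In such bulk samples a change in the number of cells of a type and a change in RNA per cell cannot be told apart.

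Of the 40 members, 36 reached a value of 10 in at least 2 libraries and were tested with limma on log2(value + 1), with Benjamini-Hochberg adjustment over all 18097 rows tested and calls at an adjusted p under 0.05. Between intestine and bladder, 14 members were higher in intestine (28.7% of all rows tested were) and 11 were lower (23.3%). Between lung and bladder, 8 were higher in lung (19.2%) and 7 lower (21.8%). Between lung and intestine, 10 were higher in lung (15.9%) and 10 lower (23.6%). The median log2 difference of the tested members was -0.12 from bladder to intestine, -0.03 from bladder to lung and -0.18 from intestine to lung, beside 0.06, 0.00 and -0.04 over all rows. An absolute log2 difference of at least 1 was called for 18 members from bladder to intestine (28.8% of all rows), for 8 from bladder to lung (22.6%) and for 15 from intestine to lung (23.4%). Libraries did not overlap for 13 members higher (34.3%) and 11 lower (29.1%) in intestine than in bladder, 10 higher (28.6%) and 8 lower (29.5%) in lung than in bladder, and 13 higher (26.9%) and 13 lower (31.6%) in lung than in intestine. Of the 16 members with a mean over all libraries of at least 100, 4 were higher and 8 lower in intestine than in bladder (26.9% and 29.4% of the 11927 such rows). In lung 5 were higher and 5 lower than in bladder (21.3% and 25.9%), and 6 higher and 3 lower than in intestine (19.7% and 22%). Counts over the tested members are a description, because 8 of the 36 passed the filter through 1 organ alone and so had to differ: Dlx1, Dlx2, Lhx5, Msx3, Onecut2 and Onecut3 through intestine, Irx2 through lung and Pou3f3 through bladder. Each pair shares its libraries with the other pairs, so the 3 comparisons are not independent. Without bladder replicate 1, bladder replicate 2 or lung replicate 2, the 8 members higher in lung than in bladder became 5, 4 and 5. The labels do not say whether separate mice gave the libraries, so p-values measure the spread from library to library, part of which may be technical.

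**Figure D1:**
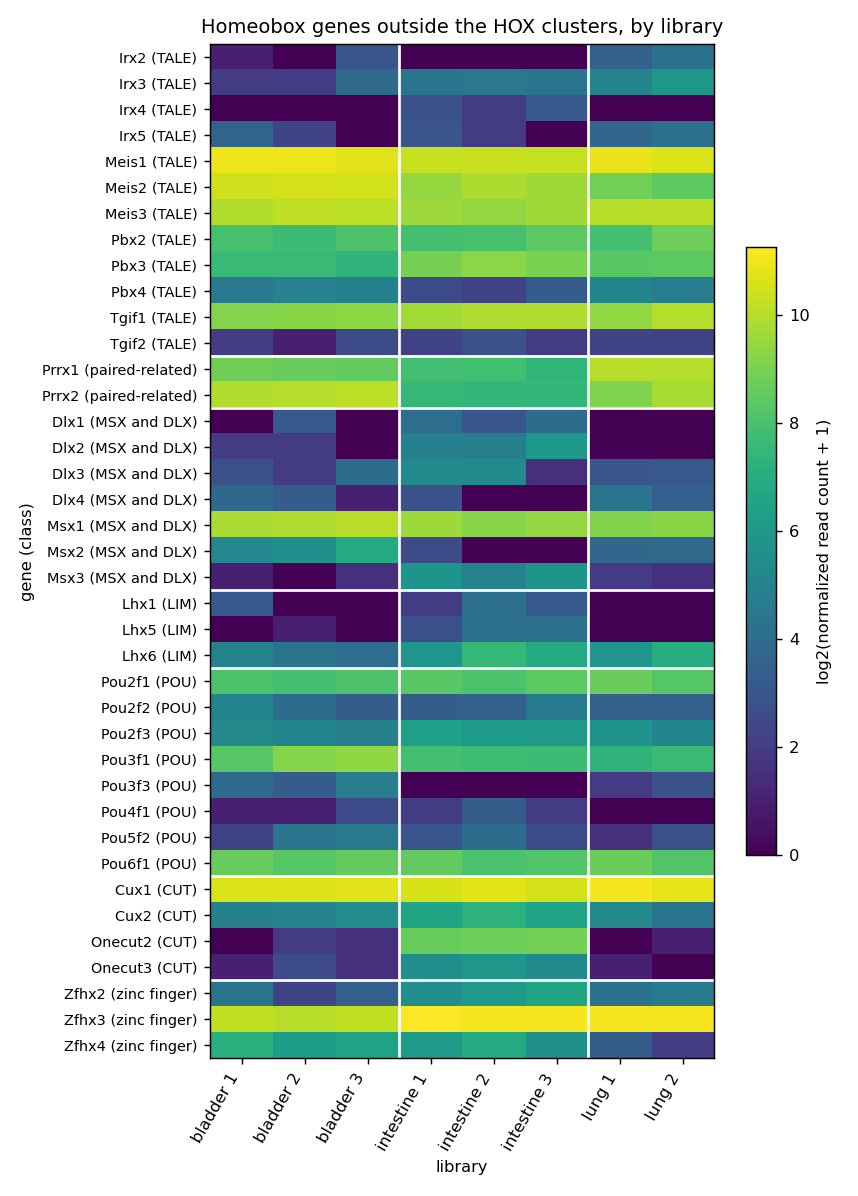
Level of the members (rows, grouped by class) in each of the 8 libraries (columns), as colour on the log2(value + 1) scale. Zfhx3 lies at 1060 or higher in every library, and Onecut2 is at 406 to 489 in the intestine libraries and at 0 to 3 in the others.

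The expressed repertoire was dominated by few members. The values of all members summed to 14394 to 14961 in bladder, 12443 to 12809 in intestine and 13788 to 14162 in lung, and the 10 highest members held 82.2 to 88.5% of that sum. Per kb of exon, the scale on which genes can be compared, the order in bladder was Prrx2 (536), Meis3 (349), Msx1 (318) and Meis1 (182). In intestine it was Meis3 (243), Msx1 (223), Tgif1 (165) and Meis1 (120). In lung it was Prrx2 (363), Meis3 (344), Msx1 (190) and Meis1 (167). Meis3, Msx1 and Meis1 were thus among the first 4 in each organ, while Prrx2 led in bladder and lung and was at 89.1 per kb in intestine. Exon lengths are unions over isoforms, which understates the level of genes with many isoforms.

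The paired-related genes differed between all 3 pairs of organs. Prrx1 (mm39, chromosome 1, 163072688 to 163141279, minus strand) was at 452, 404 and 377 in bladder, 228, 232 and 167 in intestine, and 1068 and 1039 in lung. The organs did not overlap: lung was highest and intestine lowest. The log2 difference was 1.36 (SE 0.17) from bladder to lung and 2.34 (SE 0.17) from intestine to lung, with adjusted p of 0.000207 and 6.42e-06, and -0.98 (SE 0.15, adjusted p = 0.000476) from bladder to intestine. Calls of highest or lowest in an organ below are joint calls, which adjust the larger p of the 2 pairs. Prrx1 was the 1 member called highest in lung (adjusted p = 0.0029), as were 3.06% of all rows.

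Prrx2 (chromosome 2, 30724984 to 30771263, plus strand) had another order. It was at 984, 1040 and 1127 in bladder, 179, 168 and 177 in intestine, and 547 and 878 in lung. Bladder was highest, lung intermediate with its libraries far apart, and intestine lowest, without overlap. The log2 difference was -2.58 (SE 0.16, adjusted p = 2.23e-06) from bladder to intestine and 1.98 (SE 0.18, adjusted p = 3.15e-05) from intestine to lung. The difference from bladder to lung was smaller at -0.60 (SE 0.18, adjusted p = 0.0278). It was -0.26 without lung replicate 1. It was not called without bladder replicate 2 (-0.60, adjusted p = 0.0685) or without bladder replicate 3 (-0.55, adjusted p = 0.0852). Nor was it called with the deposited scaling undone (-0.09, adjusted p = 0.739), which leaves depth uncorrected and gave a median over all rows of 0.48.

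Within a library, the ratio of Prrx1 to Prrx2 does not depend on the scaling of that library. It was 0.459, 0.388 and 0.335 in bladder, 1.27, 1.38 and 0.944 in intestine, and 1.95 and 1.18 in lung. Bladder lay below both other organs, while intestine and lung overlapped. Summed per kb of exon, the pair reached 543 to 609 in bladder, 105 to 112 in intestine and 376 to 542 in lung, so that intestine held the least PRRX transcript by a wide margin. Each of the 8 fibroblast markers was lower in intestine and in lung than in bladder. Prrx2 was lower than in bladder in both organs, and Prrx1 was lower in intestine and higher in lung. The part of fibroblast content in the PRRX levels was not tested.

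The promoters of both genes are shown with that of Meis2, as examples of members called in every pair of organs. The sequences are the 250 bases before the annotated start from RefSeq (build GRCm38.p6), 5′ to 3′ on the gene's strand, and capitals mark matches to the motifs searched. The positions are chr1:163313651-163313900 (minus) for Prrx1, chr2:30845117-30845366 (plus) for Prrx2 and chr2:116064620-116064869 (minus) for Meis2.
Prrx1: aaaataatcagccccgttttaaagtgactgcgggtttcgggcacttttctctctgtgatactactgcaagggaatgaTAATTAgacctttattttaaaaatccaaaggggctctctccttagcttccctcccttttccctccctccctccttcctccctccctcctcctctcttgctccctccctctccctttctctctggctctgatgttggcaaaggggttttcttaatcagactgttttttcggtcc
Prrx2: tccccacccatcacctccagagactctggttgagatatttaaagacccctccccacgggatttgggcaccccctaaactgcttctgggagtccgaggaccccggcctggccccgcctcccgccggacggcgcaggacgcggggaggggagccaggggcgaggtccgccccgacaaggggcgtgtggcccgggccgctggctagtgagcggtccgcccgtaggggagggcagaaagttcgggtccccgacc
Meis2: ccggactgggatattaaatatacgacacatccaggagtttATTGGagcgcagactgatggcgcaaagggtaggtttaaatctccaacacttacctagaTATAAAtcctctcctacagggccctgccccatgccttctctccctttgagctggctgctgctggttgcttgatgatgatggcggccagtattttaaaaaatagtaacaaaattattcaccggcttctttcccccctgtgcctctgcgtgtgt
The Prrx2 promoter had 70% GC and 21 CpG, against 47.6% and 4 CpG in Prrx1 and 47.6% and 7 CpG in Meis2. Prrx1 held the homeodomain core TAATTA 173 bases before its start, which 4.84% of all 32851 promoters of this length hold on either strand. Meis2 held a CCAAT box 210 bases before its start, printed on its reverse strand, and a TATAAA 152 bases before. These letters occur in 33.8% and 12.4% of all promoters. No motif searched matched in Prrx2. Promoter entries matched 29 of the 40 members, whose 38 promoters had a median of 61.6% GC and 16 CpG, beside 52.4% and 6 over all promoters. The MEIS site TGACAG matched in 3 member genes (Cux2, Lhx1 and Pou4f1; 15.9% of all promoters). TAATTA matched in Msx2 and Prrx1, the PBX-type site TGATTNAT in Tgif1 (2.82%) and the ONECUT core ATCGAT in Cux2 (0.728%). The POU octamer ATGCAAAT and the CArG box of smooth muscle genes (1.6% and 1.47% of all promoters) matched in 0 members. Both strands were searched, TGACAG and TAATTA can lie within longer homeodomain sites, and a match is a description of letters.

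**Figure D2:**
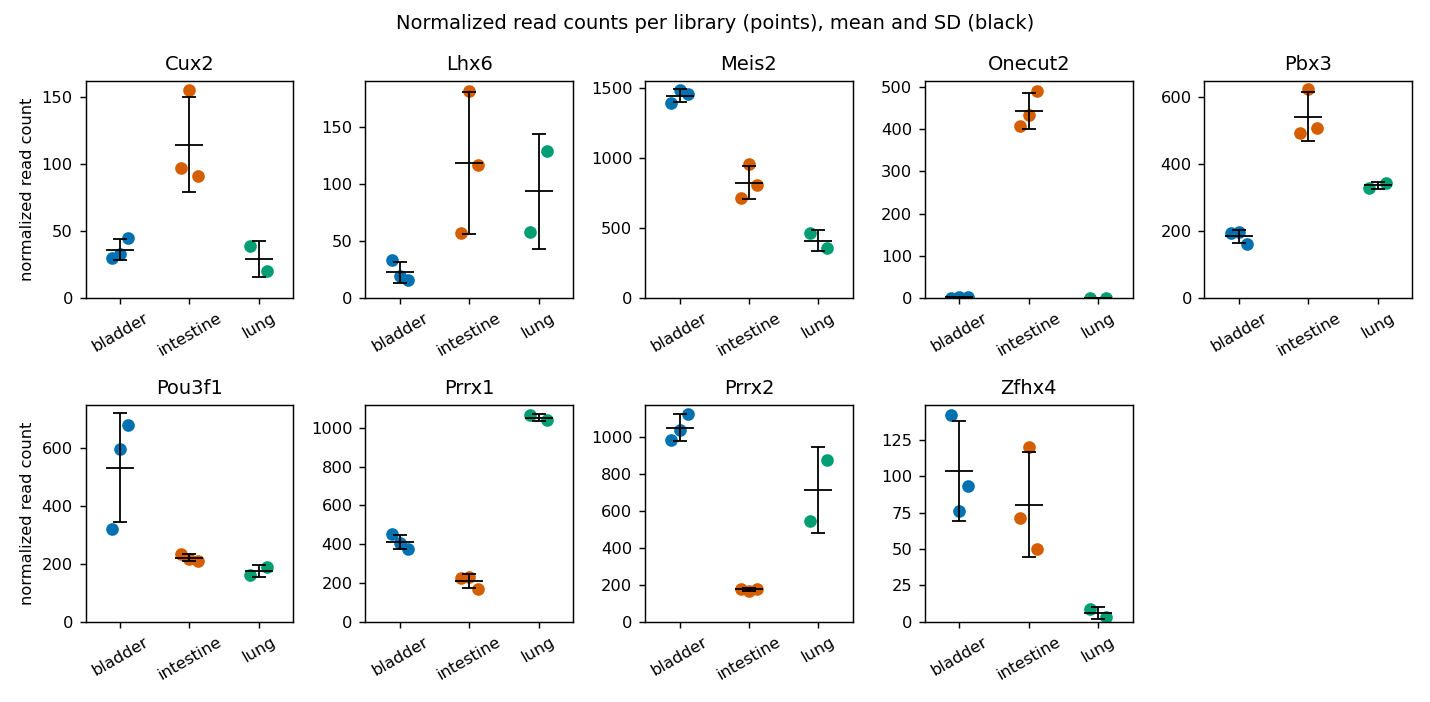
Normalized read count (vertical axis, linear and starting at 0, 1 panel per gene) in each library of bladder, intestine and lung for 9 members with a called log2 difference of at least 1 and an organ mean of at least 100; coloured points are libraries, and black bars give the mean and SD. The Prrx1 libraries of lung sit at 1068 and 1039, above every bladder and intestine library, while those of Prrx2 sit at 547 and 878, below bladder and above intestine.

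Among the PBX genes, which encode partners of MEIS and HOX proteins, Pbx3 differed between all 3 pairs of organs. Pbx3 (chromosome 2, 34061469 to 34263154, minus strand) was at 193, 198 and 162 in bladder, 492, 625 and 509 in intestine, and 329 and 344 in lung. Intestine was highest and bladder lowest, with no overlap. The log2 difference from bladder was 1.55 (SE 0.14, adjusted p = 2.21e-05) in intestine and 0.87 (SE 0.16, adjusted p = 0.00228) in lung, and lung was below intestine (-0.68, SE 0.16, adjusted p = 0.009).

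Pbx4 was near the limit in intestine (5, 4 and 9) and at 22, 31 and 30 in bladder and 35 and 26 in lung. It was lower in intestine than in bladder (-2.08, SE 0.40, adjusted p = 0.00193) and than in lung. Pbx2, at 210 to 277 in bladder, 246 to 348 in intestine, and 236 and 444 in lung, was called in no pair. Its log2 difference had a 95% interval of -0.37 to 0.75 from bladder to intestine and of -0.22 to 1.03 from bladder to lung. Pbx2 overlaps Gpsm3 on the same strand, whose values were 506 to 584, 264 to 299, and 308 and 575.

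Pbxip1, which encodes a PBX-interacting protein, was at 3043 to 3111 in bladder against 4930 to 5269 in intestine and 5213 to 5364 in lung.

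**Figure D3:**
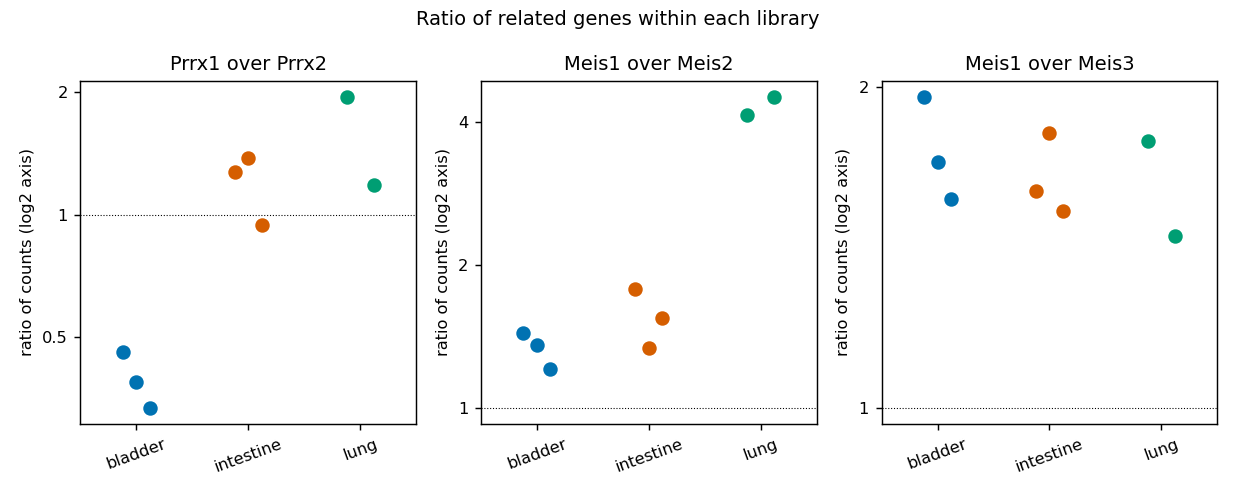
Ratio of 2 related members within each library (vertical log2 axis) by organ, for Prrx1 to Prrx2, Meis1 to Meis2 and Meis1 to Meis3, with 1 point per library and a dotted line at 1. Prrx1 to Prrx2 lies at 0.335 to 0.459 in bladder and at 0.944 or higher elsewhere, and Meis1 to Meis2 rises to 4.13 and 4.52 in lung, while Meis1 to Meis3 lies between 1.45 and 1.96 in every library.

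The MEIS genes, which encode the TALE partners of PBX, were abundant in each organ. Meis2 (chromosome 2, 115693545 to 115896320, minus strand) was at 1389, 1481 and 1454 in bladder, 713, 952 and 805 in intestine, and 464 and 355 in lung. The 3 organs did not overlap, with bladder highest and lung lowest. The log2 difference from bladder was -1.83 (SE 0.15, adjusted p = 1.57e-05) in lung and -0.82 (SE 0.13, adjusted p = 0.000648) in intestine, and lung was below intestine by -1.01 (SE 0.15, adjusted p = 0.000566). With the deposited scaling undone, which leaves depth uncorrected (median over all rows 0.45), the call between intestine and bladder was lost (-0.42, adjusted p = 0.0557).

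Meis1 and Meis3 had a common pattern that differed from that of Meis2. Meis1 was at 1756 to 2009 in bladder, 1249 to 1273 in intestine, and 1917 and 1605 in lung. Meis3 was at 1016 to 1181 in bladder, 703 to 818 in intestine, and 1075 and 1109 in lung. Intestine was lowest for both and did not overlap the other organs, while bladder and lung overlapped. Both were lower in intestine than in bladder (-0.60, SE 0.09, adjusted p = 0.000323 for Meis1 and -0.52, SE 0.09, adjusted p = 0.00116 for Meis3), and higher in lung than in intestine by 0.47 and 0.50 (adjusted p = 0.00394 and 0.00396). With the deposited scaling undone, neither was called between intestine and bladder (-0.21 and -0.13, adjusted p = 0.0925 and 0.331). Under the same setting both were called higher in lung than in bladder, at 0.38 and 0.49 (adjusted p = 0.014 and 0.00686), where the deposited scaling gave -0.13 and -0.02 and no call. That setting leaves depth uncorrected, and its median over all rows was 0.45 from bladder to intestine and 0.48 from bladder to lung. These calls are therefore not read as a difference of the MEIS genes.

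The ratio of Meis1 to Meis2 within a library was 1.21 to 1.44 in bladder, 1.34 to 1.78 in intestine, and 4.13 and 4.52 in lung, so lung stood apart. The ratio of Meis1 to Meis3 was 1.57 to 1.96, 1.53 to 1.81, and 1.78 and 1.45, and the organs overlapped. Meis2 made up 17.9 to 18.8% of MEIS transcript per kb in bladder, 13.8 to 18.8% in intestine, and 5.55 and 6.89% in lung. An antisense row within Meis1, Gm16141, was at 3 to 48.

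**Figure D4:**
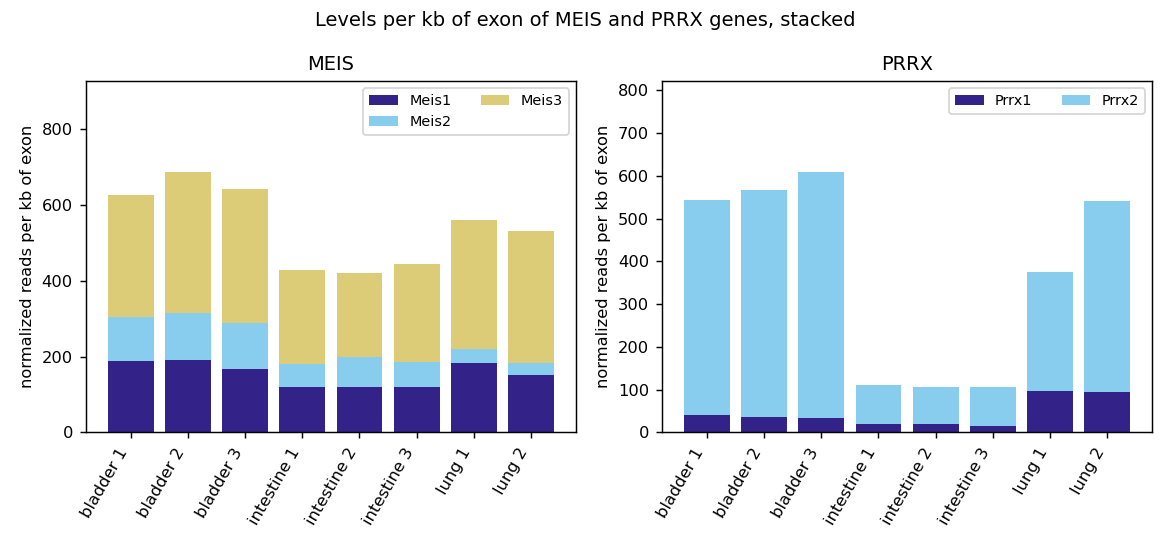
Normalized reads per kb of exon of the MEIS and PRRX genes (vertical axis), stacked by member, in each library. The PRRX stack is at 105 to 112 in intestine against 543 to 609 in bladder, and the MEIS stack is at 422 to 443 in intestine against 625 to 686.

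Of the other TALE genes, Tgif1, a repressor that binds SMAD proteins, was at 576, 621 and 653 in bladder, 836, 959 and 984 in intestine, and 706 and 1021 in lung. It was higher in intestine than in bladder (0.58, SE 0.14, adjusted p = 0.00623). The difference from bladder to lung, 0.46 (SE 0.16, adjusted p = 0.0399), was not called without lung replicate 2 (0.20, adjusted p = 0.271), nor without any other single library except lung replicate 1. The IRX genes were low, with no value above 61. Irx3 reached 32 and 61 in lung, against 20 to 22 in intestine and 3 to 14 in bladder, and was higher in lung than in bladder (2.86, SE 0.63, adjusted p = 0.00548; 2.41 and adjusted p = 0.0523 without lung replicate 2). Irx3 was also higher in intestine than in bladder (1.80, SE 0.56, adjusted p = 0.0232), a call lost without bladder replicate 1 or 2 or any intestine library (adjusted p = 0.06 to 0.0797). Irx2 was listed at 0 in the intestine libraries and at 10 and 18 in lung, which was at least 5.1-fold higher, though Irx2 passed the filter through lung alone. It was at 1, 0 and 7 in bladder. For the same reason nothing is read from its call against bladder, which was also lost without bladder replicate 1 or 2 or either lung library. Irx5 was at most 17 in any library and passed the test in no pair. The summed markers of 2 other cell types were higher in lung than in bladder, as were Prrx1, Irx2, Irx3 and Cux1. The 8 lung epithelial markers summed to 3695 to 3945 in lung, 384 to 464 in bladder and 637 to 716 in intestine, and the 8 cardiac muscle markers to 4836 to 5791, 516 to 666 and 1332 to 1433. Of these, 6 and 7 were higher in lung than in bladder. Both sums were also higher in intestine than in bladder, though few of the markers were called there. Of the 8 lung epithelial markers, 1 (Hopx) was higher in intestine. Of the 8 cardiac markers, 2 (Pln and Ryr2) were higher and 2 (Tnni3 and Tnnt2) lower. Between the same organs, Irx3 was called higher and Prrx1 lower in intestine, and Irx2 and Cux1 were not called. The part of these cells in the levels of those members was not tested.

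**Figure D5:**
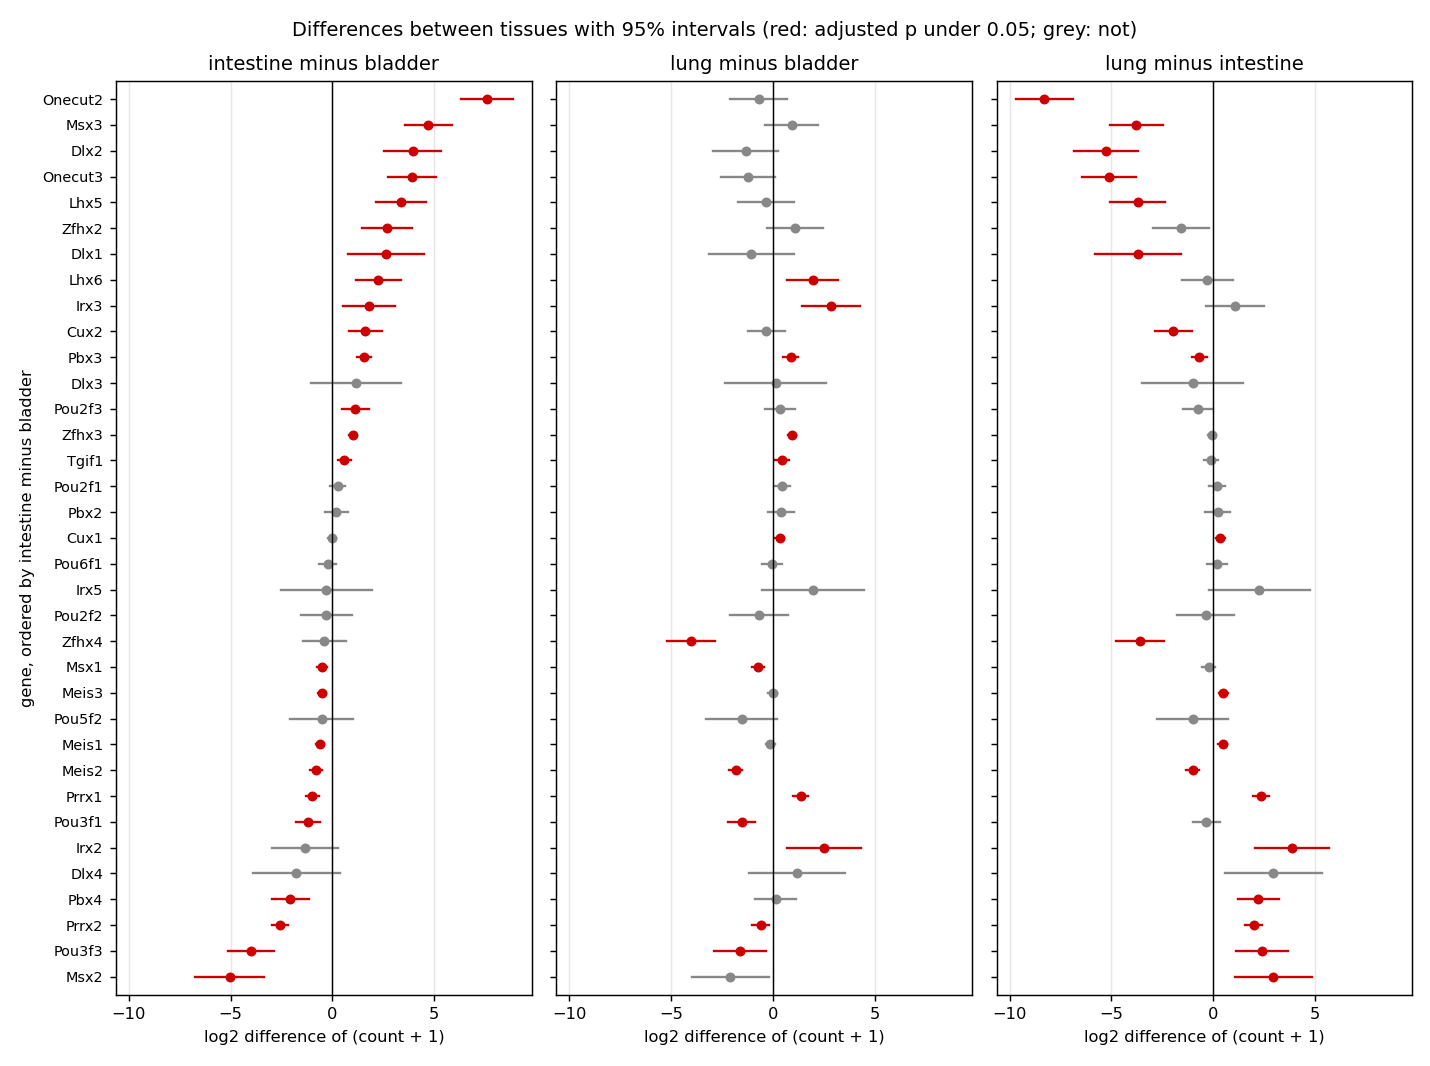
Log2 difference of tested members (rows) for intestine minus bladder, lung minus bladder and lung minus intestine, with 95% intervals; red points passed the test at an adjusted p under 0.05 and grey points did not. Prrx2, Msx2 and Pou3f3 lie at -2.58 or lower for intestine minus bladder, and Onecut2 lies at 7.59.

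The CUT genes held the member with the widest range between organs. Onecut2 (chromosome 18, 64473091 to 64534058, plus strand), a factor known from liver, pancreas, retina and neurons, was at 406, 433 and 489 in intestine. It was at 0, 3 and 2 in bladder and at 0 and 1 in lung, at or below the limit that a count of 0 allows. The reconstructed reads gave a ratio of intestine over lung of 1048 with a 95% counting interval of 188 to 41438, since lung held 1 read in all. The log2 difference from bladder to intestine was 7.59 (SE 0.56), given as a description since Onecut2 passed the filter through intestine alone. Onecut3 was lower but had the same order, at 46, 61 and 41 in intestine against 1 to 5 in bladder and 1 and 0 in lung (3.91, SE 0.53 from bladder to intestine, likewise a description).

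Cux2, a CUT factor of cortical and spinal neurons, was at 97, 155 and 91 in intestine, 30, 33 and 45 in bladder, and 39 and 20 in lung. Intestine did not overlap the other organs, and bladder and lung did overlap. The log2 difference was 1.62 (SE 0.36, adjusted p = 0.00432) from bladder to intestine, lost under quantile normalization (0.78, adjusted p = 0.094), and -1.95 (SE 0.40, adjusted p = 0.0042) from intestine to lung. Its broadly expressed relative Cux1 was at 1566 to 1676 in bladder, 1504 to 1788 in intestine, and 2209 and 1914 in lung. Cux1 was higher in lung in each pair (0.35 and adjusted p = 0.0193 from bladder, 0.35 and adjusted p = 0.0185 from intestine), but the joint call was not met (adjusted p = 0.132). Without lung replicate 1 these differences were 0.24 and 0.25 (adjusted p = 0.104 and 0.0945), and 2 bladder and 2 intestine libraries also decided a call each. Neither call held without the intensity trend of the fit (adjusted p = 0.0675 and 0.0664).

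Further low members were called highest in intestine. Msx3 was at 56, 32 and 56 in intestine, 1, 0 and 2 in bladder, and 3 and 2 in lung. Dlx2, a factor of forebrain interneurons and neural crest, was at 30, 28 and 63 in intestine, 3, 3 and 0 in bladder and 0 in both lung libraries, at least 15.9-fold higher in intestine than in lung. Lhx5, a LIM factor of the developing brain, was at 6, 17 and 17 in intestine, 0, 1 and 0 in bladder, and 0 in both lung libraries, at least 5.27-fold higher than in lung. Intestine did not overlap the other organs for any of these genes. With Cux2, Onecut2, Onecut3 and Pbx3, these were the 7 members called highest in intestine (12.5% of all rows were). Of the 7, Dlx2, Lhx5, Msx3, Onecut2 and Onecut3 passed the filter through intestine alone, so their levels are a description and nothing is read from this count.

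Marker lists of several cell types were also higher in intestine than in bladder. Of the 10 enteric neuron markers, 9 were higher in intestine than in bladder, as were the 6 glial markers (summed level 1514 to 2061 in intestine, against 155 to 220 in bladder and 219 to 299 in lung). The 6 enteroendocrine markers summed to 3903 to 4266 in intestine against 2 to 9 in bladder and 4 to 19 in lung, and 3 of them were at 0 in every bladder library and 3 in every lung library. Of the 8 intestinal epithelial markers, 7 were higher in intestine, and 2 were at 0 in every bladder and every lung library. The 6 B lineage markers were each higher in intestine than in bladder. So were 5 of 6 endothelial markers, 3 of 4 of lymphatic endothelium and 4 of 5 of interstitial cells of Cajal. No fibroblast, mesothelial or urothelial marker was called higher in intestine than in bladder. The part of these cell types in the levels of Onecut2, Onecut3, Cux2, Msx3, Dlx2, Lhx5 and Pbx3 was not tested.

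Zfhx2, a zinc finger homeodomain factor, was at 45, 67 and 97 in intestine, against 20, 4 and 10 in bladder (2.68, SE 0.55, adjusted p = 0.0026), and at 18 and 25 in lung. Pou2f3, the factor that specifies tuft cells, was at 85, 69 and 67 in intestine, against 39, 33 and 29 in bladder (1.11, SE 0.29, adjusted p = 0.0106), and at 52 and 35 in lung. Under quantile normalization its difference was 0.23 (adjusted p = 0.545). Of the 8 tuft cell markers, 6 were tested, and 5 were higher and 1 (Dclk1) lower in intestine than in bladder. Trpm5, the tuft cell cation channel, was at 114, 99 and 151 in intestine, 6, 9 and 50 in bladder, and 4 and 8 in lung. The part of tuft cells in the Pou2f3 level was not tested.

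Among the remaining LIM genes, Lhx6 (chromosome 2, 35971965 to 35995420, minus strand), known from interneurons and from jaw and tooth mesenchyme, was at 33, 19 and 16 in bladder, 57, 182 and 117 in intestine, and 58 and 129 in lung. Bladder lay below both other organs, which overlapped widely. Against bladder, Lhx6 was higher by 2.25 on the log2 scale (SE 0.50, adjusted p = 0.00406) in intestine and by 1.95 (SE 0.56, adjusted p = 0.0197) in lung. The lung call was lost without lung replicate 2 (1.38, adjusted p = 0.158), without bladder replicate 2 (1.86, adjusted p = 0.0528) or without bladder replicate 3 (1.75, adjusted p = 0.0576).

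Zfhx3 (chromosome 8, 108669276 to 109688262, plus strand), a large zinc finger homeodomain protein, was at 1221, 1060 and 1207 in bladder, 2470, 2205 and 2231 in intestine, and 2202 and 2233 in lung. Bladder was lowest without overlap, and intestine and lung did overlap. Against bladder the log2 difference was 0.99 (SE 0.08, adjusted p = 8.18e-06) in intestine and 0.93 (SE 0.09, adjusted p = 3.93e-05) in lung. From intestine to lung it was -0.05 with a 95% interval of -0.25 to 0.15. Zfhx3 and Pbx3 were the 2 members called lowest in bladder (7.57% of all rows). The 8 mural cell markers summed to 9585 to 9976 in bladder, 25060 to 26354 in intestine and 20816 to 24587 in lung, with 6 of the 8 higher in intestine and 6 in lung than in bladder. The 10 smooth muscle markers summed to 19829 to 24040 in bladder, 31038 to 33688 in intestine and 31359 to 34837 in lung. Of these, 6 were higher and 2 lower in intestine than in bladder, and 6 were higher in lung. The part of mural and smooth muscle cells in the Zfhx3 and Pbx3 levels was not tested.

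Its relative Zfhx4 (chromosome 3, 5283586 to 5480917, plus strand) went another way. Zfhx4 was at 142, 76 and 93 in bladder, 71, 120 and 50 in intestine, and 9 and 3 in lung. Bladder and intestine overlapped, and both lay far above lung. The log2 difference to lung was -4.00 (SE 0.52, adjusted p = 0.000284) from bladder and -3.59 (SE 0.52, adjusted p = 0.000548) from intestine. Zfhx4 and Meis2 were the 2 members called lowest in lung (6.25% of all rows).

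Members called highest in bladder included Meis2, Msx1 and Pou3f1, a call that 10.3% of all rows met. Pou3f1 (chromosome 4, 124550600 to 124554448, plus strand), a POU factor of Schwann cells, neurons and skin, was at 320, 597 and 681 in bladder, 235, 217 and 211 in intestine, and 160 and 190 in lung. Bladder was highest in each library, with replicate 1 nearest the other organs. Against bladder the log2 difference was -1.20 (SE 0.26, adjusted p = 0.00354) in intestine and -1.53 (SE 0.29, adjusted p = 0.00236) in lung. Msx1, a BMP-induced factor, was at 908, 987 and 1057 in bladder, 786, 598 and 692 in intestine, and 556 and 619 in lung. Its differences from bladder were -0.51 (SE 0.12, adjusted p = 0.0052) in intestine and -0.74 (SE 0.13, adjusted p = 0.00178) in lung. Neither was called with the deposited scaling undone (-0.12 and -0.23, adjusted p = 0.479 and 0.228). Depth is then uncorrected, and the medians over all rows were 0.45 and 0.48.

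Msx2 and Pou3f3 were low and had their highest values in bladder. Msx2 was at 36, 48 and 118 in bladder, 5, 0 and 0 in intestine, and 12 and 14 in lung. It was lower in intestine than in bladder (-5.04, SE 0.75, adjusted p = 0.000394). Its difference from intestine to lung (2.94, adjusted p = 0.0206) was lost without either lung library (3.04 without replicate 1 and 2.84 without replicate 2, adjusted p = 0.0638 and 0.101) and without intestine replicate 2 or 3 (2.51 each, adjusted p = 0.0719 and 0.0722). Pou3f3 was at 14, 9 and 27 in bladder, 0 in each intestine library, and 3 and 6 in lung, and was at least 6.07-fold higher in bladder than in intestine, though it passed the filter through bladder alone. Its log2 difference from bladder to lung was -1.61 (SE 0.56), given as a description for that reason. The call of this difference was also lost on leaving out any 1 library other than bladder replicate 2. The 7 tested urothelial markers were each lower in intestine than in bladder, with a summed level of 132 to 141 there, 5977 to 7952 in bladder and 341 in each lung library, and the part of urothelium in these levels was not tested.

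Members called lowest in intestine were Meis1, Meis3, Pbx4, Prrx1 and Prrx2 (5 members, beside 3.92% of all rows). Of the remaining members, Dlx1 was at 16, 7 and 15 in intestine, 0, 8 and 0 in bladder and 0 in lung. It was called higher in intestine in each pair, though not under the joint call. Dlx1 passed the filter through intestine alone, so its levels are a description and nothing is read from these calls. The call against bladder was also lost without bladder replicate 1 or 3 or intestine replicate 1 or 3, and that against lung without lung replicate 2. Dlx1 overlaps the antisense row Dlx1as, at 9, 15 and 11 in bladder, 18, 16 and 13 in intestine, and 7 and 12 in lung. Reads of the overlap cannot be told apart without strand. Dlx1 lies 9.43 kb from Dlx2. Dlx3 (at most 40), Dlx4 (at most 19), Pou2f1 (237 to 412), Pou2f2 (at most 33), Pou5f2 (at most 22) and Pou6f1 (266 to 427) passed the test in no pair. Pou5f2 lies within Fam172a on the same strand, and its reads cannot be told apart from those of that gene. The 4 members that were not tested had highest values of 8 (Irx4), 17 (Lhx1), 9 (Pou4f1) and 6 (Tgif2).

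Other homeobox genes of the same classes, given as context, were 33 genes of which 26 were tested. From bladder to intestine 9 were higher and 11 lower. From bladder to lung 2 were higher and 12 lower, and from intestine to lung 6 were higher and 12 lower. Their median log2 difference was -0.12, -0.54 and -0.66, beside 0.06, 0.00 and -0.04 over all rows. Tshz2, a zinc finger homeodomain gene, was at 2155 to 2296 in bladder, 1213 to 1276 in intestine, and 282 and 304 in lung. Barx1, a factor of stomach and gut mesenchyme, was at 206 to 303 in intestine against 1 to 2 in bladder and 12 and 20 in lung. Isl2, a LIM factor of motor neurons, was at 234 to 242 in intestine, 8 to 30 in bladder and 0 in lung.

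The list drawn up for cofactors of TALE, LIM and POU proteins held 24 genes, each of them tested. It also took in Srf and Myocd, of which Myocd was in the smooth muscle list too. From bladder to intestine 6 were higher and 9 lower, from bladder to lung 5 and 8, and from intestine to lung 7 and 5, with medians of -0.14, -0.003 and 0.04. Ldb2, which bridges LIM homeodomain proteins, was at 809 to 956 in intestine against 309 to 345 in bladder and 306 and 388 in lung. Smad3, the TGF-beta effector bound by TGIF proteins, was at 1120 to 1174 in bladder, 673 to 769 in intestine, and 627 and 643 in lung.

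The 18 BMP pathway genes, which act upstream of MSX and DLX factors, were each tested. From bladder to intestine 6 were higher and 7 lower, from bladder to lung 5 and 7, and from intestine to lung 7 and 3, with medians of -0.21, -0.10 and 0.13. Among the ligands, Bmp2 was at 2538 to 2713 in intestine, 1043 to 1174 in bladder, and 539 and 569 in lung. Bmp7 was at 464 to 807 in bladder and 518 to 598 in intestine, against 42 and 49 in lung. Bmp6 was at 4826 to 5293 in bladder, 1820 to 2037 in intestine, and 422 and 478 in lung. The part of BMP signalling in the MSX and DLX levels was not tested.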

How the data were processed

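RNA from 8 libraries of sorted cells was sequenced after SMART-Seq v4 amplification. The submitters' processing notes name DESeq2 1.36.0, featureCounts 2.0.4, STAR 2.7.10a, Picard 3.0.0, Trimmomatic 0.39 and the build mm39, with no roles. Annotation release, strand setting and filters are not given in these sources. Values deposited by the authors were treated as a score, because their gaps are those of reads scaled by 1 factor per library, then rounded to whole numbers. Those gaps gave the reconstructed reads, which differed from the truth by at most 1 read when simulated. That check did not cover the highest values, such as those of Zfhx3 in intestine. The setting with the deposited scaling undone uses these reads with no correction for depth.

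Members and lists were chosen with earlier results of these data known. Rows that reached 10 in 2 or more libraries (18097, with 3552 left out) were fitted with limma 3.58.1 (R 4.3.3) on log2(value + 1), with 1 mean per organ, all 8 libraries and an intensity trend. An F test and the 3 pairs were adjusted by Benjamini-Hochberg over all rows tested, and log2(value + 1) differences understate the change of low genes. A member was called highest or lowest in an organ from the larger p of its 2 pairs, adjusted likewise. The fit was tested on simulated data. A count test was not used, since the values are not counts.

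By the naming rule, members called in a pair with an absolute log2 difference of at least 1 and an organ mean of at least 100 are given in each library, then the 12 others of smallest F test p. Cux1, Dlx1, Irx2, Irx3, Pou2f3, Tgif1 and other members outside the rule are named to account for each member. Some results that met the rule are not reported here. Lower bounds on folds use 3 reads per library. Counting intervals are 95% and exact. Bounds and intervals cover counting error only, because amplified reads that carry no molecular identifier do not each stand for a molecule. Replicate numbers were not used to pair the libraries, because the labels do not say what they mark. A fit with them as a block is given with the alternatives below. Exon lengths and coding sequences came from GENCODE M21 and promoters from RefSeq GRCm38.p6. Gene coordinates are those of the deposited table (mm39), and builds were not mixed.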

Additional observations from a re-analysis of the deposited data

How the results depend on the processing

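Across 19 other settings, 1880 of the values of 108 member-by-pair differences stayed on their side of the threshold with their direction (or changed sign without a call in either fit, 48 values), 88 lost the call, 39 gained it and 3 reversed. Undoing the deposited scaling, which leaves depth uncorrected, gave a median over all rows of 0.45 (intestine minus bladder), 0.48 (lung minus bladder) and 0.07 (lung minus intestine), against 0.06, 0.00 and -0.04 as deposited. Quantile normalization gave medians of -0.15, 0.03 and 0.18, and equal totals 0.15, 0.12 and 0.01. The 3 reversals arose with the scaling undone, and none was called as deposited: Cux1 from bladder to intestine (0.39, adjusted p = 0.0296), and Meis1 and Meis3 from bladder to lung (0.38 and 0.49, adjusted p = 0.014 and 0.00686). Members lower than in bladder then numbered 7 in place of 11 in intestine and 4 in place of 7 in lung, and those higher 16 and 12 in place of 14 and 8, beside all rows at 8316 higher and 1934 lower in intestine than in bladder in place of 5185 and 4210. Quantile normalization gave 10 higher and 15 lower in intestine than in bladder. A minimum of 50, which tests fewer members, gave 9 in place of 14 higher in intestine than in bladder, and 6 higher and 6 lower in lung than in intestine in place of 10 and 10. Members higher in lung than in bladder, 8 in all, became 5 without the intensity trend and 4 with the 2 organs fitted alone, and the cause was not tested. Of the calls from bladder to lung, those of Prrx2 (adjusted p = 0.0582), Tgif1 (0.0864) and Irx2 (0.0507) also ended without the trend. With the 2 organs fitted alone, those of Prrx2 (0.113), Tgif1 (0.124), Irx2 (0.123), Irx3 (0.053), Lhx6 (0.0583) and Pou3f3 (0.0994) ended, as did that of Cux1 from intestine to lung (0.059). Leaving out 1 library at a time gave 12 to 14 higher and 11 to 12 lower in intestine than in bladder, 4 to 7 higher and 5 to 7 lower in lung than in bladder, and 7 to 11 higher and 9 to 11 lower in lung than in intestine. Where 1 lung library remained, it was assumed to vary like the other organs. With the replicate number as a block the counts were 14 and 12, 8 and 6, and 10 and 10, and the block ended both calls of Cux1 (adjusted p = 0.0581 from bladder and 0.056 from intestine to lung) and that of Pou3f3 from bladder to lung (0.122). Deviations of same-numbered libraries from their organ mean correlated across genes at -0.026 to 0.058, and those of other libraries at -0.072 to 0.072. With so few libraries the deviations cancel within an organ, so these values cannot decide whether the numbers pair the libraries. Differences between values below 3.81 were not detectable at this depth.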
